A study of Arabidopsis thaliana with 6 samples.

Results

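The untreated second internode of *Arabidopsis thaliana* stems was described from the 3 Mock RNA sequencing libraries of the series, out of 6 libraries in all, chosen by their treatment label. The other 3 libraries, from plants given dexamethasone (Dex), entered no comparison. Plants carried *p35S:Myc-GR-bdl*, a transgene in which the viral 35S promoter, active in most plant cells, drives a stabilized form of the auxin response repressor BODENLOS (BDL) fused to a Myc tag and the glucocorticoid receptor. The receptor keeps the fusion protein inactive until Dex is given, so that the Mock plants held the transgene but not the inducer. The transgenic line is given by titles and source names, whereas the growth note speaks of Col-0 wild type. They spent 3 weeks at 21 °C under short days (8 h light, 16 h dark) before a move to long days (16 h light, 8 h dark). At 15 to 20 cm in height they were treated with mock solution for 3 h before the second internodes were taken. The mock solution, by the methods, was ethanol and Silwet in tap water, into which plants were dipped. By the methods on RNA preparation, second internodes were taken as 3 biological replicates of 3 plants each, and the labels speak of RNA pooled from 3 samples. Whether a library (Mock 1, Mock 2 or Mock 3) is 1 such replicate or a pool of them is not stated in either, so that the spread between libraries may be technical in part.

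The second internode is a young, still green part of the inflorescence stem in which primary growth gives way to thickening. Its epidermis secretes a wax cuticle, its cortex photosynthesizes, and its vascular bundles hold phloem, a cambium of dividing stem cells, and xylem. Vessels and fibres deposit a secondary wall of cellulose, xylan and lignin and then die. In whole internodes, fewer cells of a type and less RNA per cell cannot be told apart, and each value below is an average over these tissues.

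Depth was alike in the 3 libraries, with 30601253 reads assigned to genes in Mock 1, 33062010 in Mock 2 and 37812400 in Mock 3, of which 96.4% to 96.8% fell on 1 place in the genome. Levels were read as RPKM, the authors' values of exon reads scaled to exon length and library size, and 3 values of a gene stand for Mock 1, Mock 2 and Mock 3 in that order throughout. Of 27198 genes with an exon length, 16762 (61.6%) had an RPKM of at least 1 in every library, and 4854 had an RPKM of 0 in all of them. A count of 0 allows up to 3 reads, which is 0.0793 to 0.098 CPM (reads scaled to library size) at these depths and covers counting error only. Ribosomal RNA took 0.584% of the reads on named genes in Mock 1, 0.195% in Mock 2 and 0.328% in Mock 3, all of them on 4 genes. Genes of the plastid and mitochondrial genomes were not analysed here.

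The transcript pool was spread over many genes. The 53 genes at 1000 RPKM or more held 15.9% ± 0.24 of summed RPKM (SD, n = 3), the 1249 genes between 100 and 1000 RPKM held 41.8% ± 0.389, and the 8933 genes between 10 and 100 RPKM held 37.4% ± 0.235. The 10 highest genes held 5.68% ± 0.279 and the 100 highest 21.2% ± 0.36, while 834, 836 and 854 genes were needed for 50% of summed RPKM in Mock 1, Mock 2 and Mock 3. Between libraries the order of the top was stable. Of the 30 highest genes, 27 were shared by all 3 libraries and 34 appeared in any of them, and of the 100 highest, 84 were shared and 119 appeared in any.

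Among the genes of known product, *CAT3* (AT1G20620), which encodes a catalase that breaks down hydrogen peroxide in peroxisomes, ranked highest by mean, with 5154, 5500 and 5849 RPKM in Mock 1, Mock 2 and Mock 3. Only 1 entry had a higher mean, at 4792, 5844 and 6044 RPKM, and it lay below *CAT3* in Mock 1. That entry carries the identifier AT2G39180, the receptor kinase *CCR2*, but its exon length of 836 bases is shorter than the 2331 coding bases of that kinase. The symbol *CCR2* is shared with the circadian RNA-binding protein gene *GRP7* (AT2G21660), whose own entry had 0.65, 0.686 and 0.515 RPKM and an exon length of 2515 bases. The lengths of both entries fit the other gene better, so that the entry is reported by its identifier and left out of every gene list. Of 677 pairs of genes that share a name, 15 pairs looked exchanged in this way.

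Many of the other genes of the top 30 fell into a few kinds. Proteins of water and cold stress were represented by the dehydrins AT1G54410 (4116 ± 525 RPKM) and *ERD14* (2313 ± 97.4 RPKM) and by *KIN2* (2050 ± 315 RPKM). Lipid transfer proteins, small secreted proteins of the cuticle and wall, were led by *LTP4*, which had 3510, 3891 and 4934 RPKM, and by *LTP3*, which had 1443, 1663 and 1863 RPKM. Both were highest in Mock 3. Metal-binding metallothioneins supplied *MT2B*, *MT3* and *MT2A* at 2863 ± 126, 2656 ± 332 and 2104 ± 261 RPKM (SD, n = 3). Only 20.4% of the *MT2B* reads fit 1 place, so that its level is uncertain. Redox enzymes were *GSTF9* at 3385 ± 355 RPKM, a glutathione transferase, the peroxidase *PRXR1* at 3025 ± 286 RPKM and the dehydroascorbate reductase *DHAR1* at 2275 ± 231 RPKM. Glycine-rich proteins (*DOT1*, 2680 ± 398 RPKM, and *GRP-3*, 2249 ± 225 RPKM), the growth-related protein *TCTP* (2942 ± 192 RPKM) and the chaperone *HSC70-1* (2338 ± 494 RPKM) also ranked among the 30. AT1G67865, of unknown product, ranked above most of these at 4717 ± 308 RPKM, followed by the calcium-binding AT1G62480 at 4470 ± 162 RPKM. *SAM1*, which makes the methyl donor S-adenosylmethionine, had 2002 ± 61.7 RPKM, and the chitinase-like *POM1*, which acts in cellulose deposition, had 1609 ± 44.8 RPKM. AT1G13930 (2821 ± 356 RPKM), AT2G33830 (2113 ± 552 RPKM) and AT1G75280 (1857 ± 127 RPKM) belonged to none of these kinds.

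**Figure D1:**
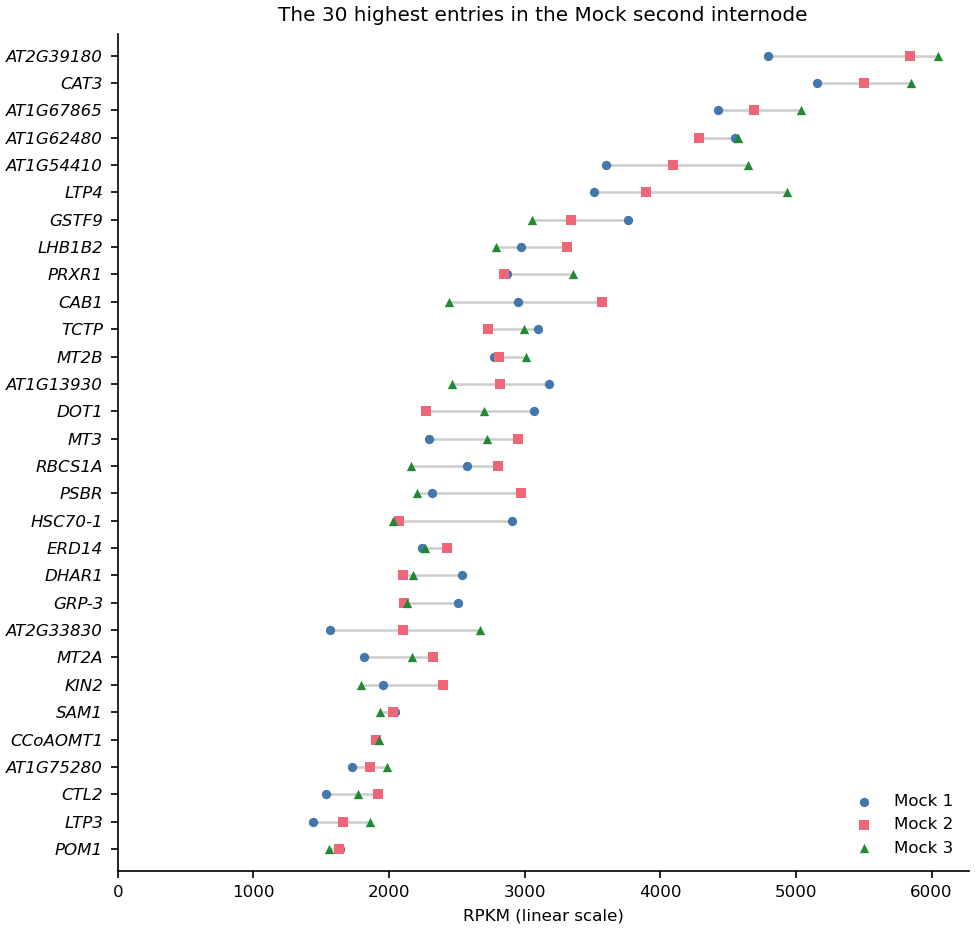
RPKM (x axis, linear scale) of the 30 highest entries (y axis) in the 3 Mock libraries, with 1 marker per library and a grey line from the lowest to the highest. *CAT3* sits at 5154, 5500 and 5849 RPKM, *CCoAOMT1* shows nearly one position for all libraries, and *HSC70-1* has Mock 1 apart at 2908 RPKM.

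The largest list by share was photosynthesis in the green cortex. All 59 members had an RPKM of at least 1 in every library, against 61.6% of all genes, and their median was 351 RPKM, against 4.72 RPKM over all genes with an exon length. Together they held 4.49% of summed RPKM in Mock 1, 5.3% in Mock 2 and 4.02% in Mock 3. Light-harvesting proteins, which bind chlorophyll around the photosystems, came first, with *LHB1B2* at 2974, 3314 and 2792 RPKM and *CAB1* at 2953, 3571 and 2442 RPKM. *RBCS1A*, a small subunit of the CO2-fixing enzyme Rubisco, had 2578, 2801 and 2160 RPKM, and the photosystem II subunit gene *PSBR* had 2314, 2971 and 2208 RPKM. In each of these 4 genes Mock 2 was highest and Mock 3 lowest. About 1 read in 5 of *LHB1B2* and *CAB1* fit several places (82.7% and 81% fit 1 place), since light-harvesting genes have near-identical copies.

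Genes for the lignified walls of xylem and fibres were high, and their joint share was even between libraries. The secondary wall list (30 genes) and the lignin list (30 genes) together held 2.31%, 2.41% and 2.32% of summed RPKM in Mock 1, Mock 2 and Mock 3. *CCoAOMT1* and *OMT1*, methyltransferases that decorate lignin precursors, led the lignin list. *CCoAOMT1* had 1900, 1901 and 1929 RPKM, the smallest CV (SD as a percentage of the mean, 0.872%) of the top 30, and *OMT1* had 1453, 1566 and 1557 RPKM. The entry enzyme genes of the pathway followed, with *C4H* at 628, 726 and 768 RPKM and *PAL1* at 423, 488 and 526 RPKM, and the alcohol dehydrogenase *CAD5*, which makes the final monolignols, had 683, 590 and 591 RPKM. *C4H* and *PAL1* were lowest in Mock 1, where *CAD5* was highest. Laccases, which join monolignols in the wall, were led by *LAC4* at 463, 452 and 422 RPKM. Only 8 of 17 laccase genes (47.1%) reached 1 RPKM in every library, against 61.6% of all genes. The median CV was 8.03% in the lignin list and 6.69% in the secondary wall list, against 8.2% over all genes counted for variation. Most variable in the lignin list were the peroxidase gene AT5G64120, at 67.4, 28.1 and 37.6 RPKM, and *LAC11*, at 14, 12.2 and 8.74 RPKM.

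Among genes of the cellulose and xylan machinery, the chitinase-like *CTL2* had 1534, 1918 and 1774 RPKM and the fasciclin-like *FLA11*, a marker of fibre walls, had 1113, 1101 and 890 RPKM. *CESA4*, *CESA7* (listed as *IRX3*) and *CESA8* (*IRX1*), the 3 cellulose synthases of secondary walls, had means of 453 ± 23.3, 327 ± 21.7 and 327 ± 17.3 RPKM (SD, n = 3), and *CESA7* and *CESA8* did not differ beyond their spread. Cellulose of growing primary walls is made by *CESA3*, *CESA1* and *CESA6*. *CESA3* had 251, 232 and 219 RPKM, *CESA1* had 150, 125 and 117 RPKM and *CESA6* had 86.7, 69.1 and 55.6 RPKM. The summed level of the secondary set was 2.23 times that of the primary set in Mock 1, 2.72 times in Mock 2 and 2.74 times in Mock 3. Each primary wall gene of the 3 was highest in Mock 1 and lowest in Mock 3, whereas no such order was found among the secondary wall genes.

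Markers of most stem tissues were detected. In the stomata and guard cell list 9 of 18 genes passed 1 RPKM in every library, against 61.6% of all genes. The wax enzyme genes *CER6* (174, 179 and 175 RPKM) and *CER3* (113, 109 and 101 RPKM) marked the epidermis. Developing vessels were represented by the peptidase gene *XCP2*, with 285, 265 and 233 RPKM, and by *TED6*, with 256, 224 and 165 RPKM, both lowest in Mock 3. *VND7*, the master switch of vessel identity, was low at 1.19 ± 0.544 RPKM. Some regulators of fibre walls stood above *VND7*, with *KNAT7* at 180 ± 23.9 RPKM, *NST3* at 111 ± 13.5 RPKM and *MYB103* at 107 ± 28.8 RPKM. *VND7* was named after its value was seen and does not stand for vessel regulators as a set. As whole lists, vessel and fibre genes were alike, with medians of 19.7 and 24.4 RPKM. They held 0.145% (vessel) and 0.129% (fibre) of summed RPKM. Of 24 genes in the fibre list 23 passed 1 RPKM in every library, as did 26 of 28 vessel genes.

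Phloem genes overlapped in level between the companion cell and sieve element lists. The companion cell list had a median of 11.96 RPKM, with 15 of 20 genes over 1 RPKM in every library. The sieve element list had a median of 5.84 RPKM, with 19 of 22 genes over that level. Of all genes 61.6% passed it. Companion cells, which load sugars and amino acids, had *AAP2*, an amino acid permease, at 443, 445 and 497 RPKM and the sucrose carrier *SUC2* at 119, 147 and 148 RPKM. The highest sieve element genes were *SEOR2* and *SEOR1*, for proteins that plug wounded sieve tubes, at 55.1 ± 3.34 and 41.6 ± 2.01 RPKM. The receptor gene *BAM3*, which acts in early phloem, had 16.5, 15.8 and 14.7 RPKM.

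The cambium list had a median of 7.63 RPKM, against 4.72 RPKM over all genes with an exon length. Its highest members had moderate levels. *STM*, a homeobox gene of stem cells, had 78.2, 82 and 86 RPKM, and *KNAT1*, its relative, 53.9, 53.7 and 52.8 RPKM. *PXY*, the receptor kinase that marks cambium stem cells, had 64.6, 53.3 and 51.1 RPKM, and *WOX4*, the homeobox gene that acts downstream of it, had 14.8, 17.3 and 13.1 RPKM. *CLE41*, which encodes the peptide that *PXY* perceives, had 36.7 ± 3.02 RPKM. Of 25 cambium genes 22 passed 1 RPKM in every library, against 61.6% of all genes. Of the 21 with at least 50 exon reads in every library, 0 differed 2-fold between libraries. This is near the 2.68% of all genes counted in this way. Genes of dividing cells were low, with a median of 2.09 RPKM, but mostly detected. Of 34 genes 26 (76.5%) passed 1 RPKM in every library, against 61.6% of all genes. The cytokinesis syntaxin *KN* had the highest mean of 34 through Mock 2, at 8.31, 11.2 and 8.64 RPKM, the replication clamp *PCNA2* had 8.97, 8.81 and 9.29 RPKM, above *KN* in Mock 1 and Mock 3, and the mitotic kinase *CDKB2;1* had 5.68 ± 0.366 RPKM, and the list as a whole held 0.0117% of summed RPKM.

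**Figure D2:**
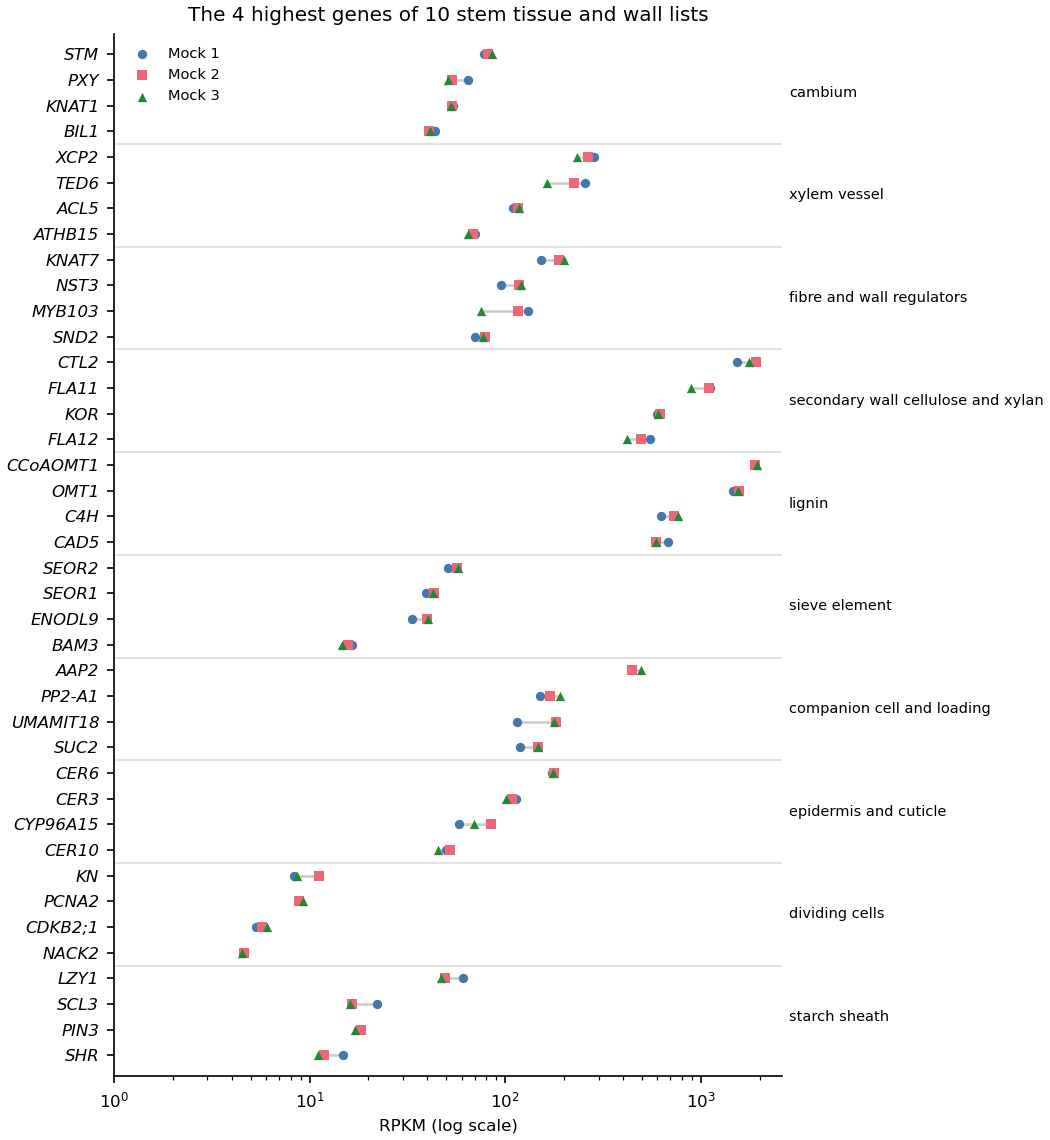
RPKM (x axis, log scale) of the 4 highest genes of 10 stem tissue and wall lists (y axis, lists named at the right) in the 3 Mock libraries, 1 marker per library. Lignin and secondary wall genes sit between 420 and 1929 RPKM, cambium genes between 40.9 and 86 RPKM and genes of dividing cells between 4.51 and 11.2 RPKM.

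Markers of other organs were mostly low or at 0. An RPKM of at least 1 in every library was reached by 5 of 30 root genes and 6 of 32 pollen and tapetum genes. It was reached by 2 of 21 flower organ genes and 1 of 30 seed genes, against 61.6% of all genes. In the same order, 13, 14, 6 and 14 genes of these lists were at 0 in all libraries. The lists held 0.00914% (root), 0.00583% (pollen and tapetum), 0.00213% (flower organs) and 0.000915% (seed) of summed RPKM. The nitrate transporter gene *NPF6.4* (AT3G21670) alone made 44.9 ± 7.59 RPKM of the root list, and *SETH3* made 26.2 ± 3.09 RPKM of the pollen list. *SHP1*, a carpel identity gene, was the highest flower gene at 9.09, 11.3 and 9.75 RPKM. Trichome genes were also low, with 4 of 12 over 1 RPKM in every library.

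**Figure D3:**
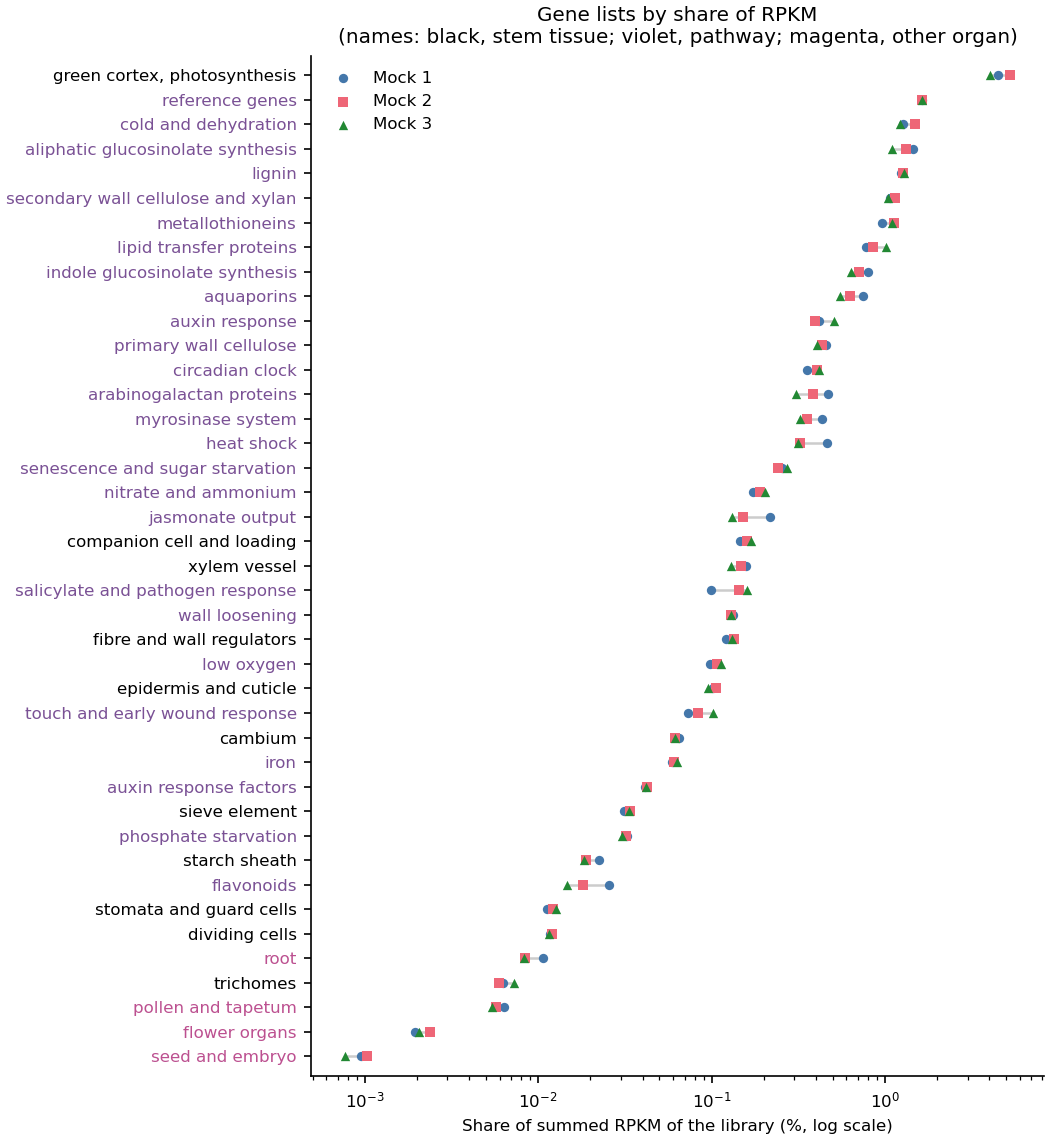
Share of summed RPKM of each library (x axis, percent, log scale) held by each of the 41 gene lists (y axis, ordered by mean), with 1 marker per Mock library. Photosynthesis stands at 4.02% to 5.3%, lignin and secondary wall near 1%, cambium near 0.0628%, and the 4 lists of other organs lie at the bottom together with trichomes.

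Glucosinolates, the sulphur-rich defence compounds of the cabbage family, were represented at high levels. The aliphatic branch held 1.45%, 1.31% and 1.09% of summed RPKM in Mock 1, Mock 2 and Mock 3. Of its 24 genes 23 passed 1 RPKM in every library, against 61.6% of all genes, and the list median was 203 RPKM. *BCAT4*, which starts the elongation of methionine, had 1696, 1512 and 1410 RPKM, the transferase *GSTU20* had 1516, 1357 and 1070 RPKM and the oxidase *CYP83A1* had 1277, 1173 and 1064 RPKM. All 3 were highest in Mock 1 and lowest in Mock 3, as were most genes of the list, of which 19 of 23 were highest in Mock 1. Of these 23 genes 0 differed 2-fold, near the 2.68% of all genes. The indole list held 0.8%, 0.713% and 0.637% of summed RPKM, with a median of 13.8 RPKM. Its members differed widely in level. The glutathione transferases *GSTF9* and *GSTF10*, which are in this list, had means of 3385 and 802 RPKM, and *CYP83B1* had 119 ± 10 RPKM. The myrosinases *TGG2* and *TGG1*, enzymes that activate glucosinolates on wounding, had 1288 ± 59.6 and 432 ± 108 RPKM.

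Water channels and wall proteins followed. *PIP2A*, an aquaporin of the plasma membrane, had 1268, 1089 and 895 RPKM, and the vacuolar *TIP2* had 789, 637 and 496 RPKM, both highest in Mock 1. Arabinogalactan proteins, which are sugar-coated wall proteins, were led by *AGP15* at 1048, 818 and 585 RPKM, and 23 of the 28 members counted were highest in Mock 1. Cell expansion enzymes were lower, with *XTH24*, a xyloglucan remodelling enzyme, at 176, 226 and 218 RPKM and the expansin gene *EXPA4* at 145, 147 and 169 RPKM. The 40 reference genes of the cytoskeleton, translation and ubiquitin system held 1.63%, 1.63% and 1.63% of summed RPKM, and 0 of 40 differed 2-fold between libraries, near the 2.68% of all genes.

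Gene families, matched by symbol, gave a like picture. The 55 genes with a symbol of a ribosomal protein held 1.17% ± 0.0597 of summed RPKM. This match leaves out members without such a symbol and does not set plastid members apart. Glutathione transferases held 1.1% ± 0.11 (49 genes) and cytochromes P450 0.68% ± 0.015. Only 92 of the 234 P450 genes with an exon length passed 1 RPKM in every library, against 61.6% of all genes with an exon length. All 15 tubulin genes passed, led by *TUB6* at 828 ± 41 RPKM. Transcription factor families were smaller. Homeobox factors held 0.214% ± 0.00381, NAC factors 0.161% ± 0.0128 and MYB factors 0.151% ± 0.0078, and the highest MYB gene was *MYB29*, a regulator of aliphatic glucosinolate genes, at 204, 157 and 142 RPKM. *WRKY70*, which acts in salicylate responses, had the highest mean of the WRKY factors at 62.8, 180 and 220 RPKM, while *WRKY12*, a regulator of pith walls, was even between libraries at 74.2, 85.7 and 83.6 RPKM.

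Auxin responses are relayed by AUX/IAA proteins, which repress auxin response factors (ARFs) until auxin triggers their degradation. *BDL* (*IAA12*, AT1G04550) had 1112, 751 and 1448 RPKM and ranked 46 among all genes. Its level is the sum of the endogenous gene and the transgene, which the tables do not separate. Reads within introns, which a spliced or intronless transcript lacks, were 6, 12 and 6 of *BDL* and made 0.0152% of its reads, against a median of 0.388% (range 0.137% to 4.66%) in the 21 other AUX/IAA genes counted. Next in the family came *IAA9* at 431, 446 and 448 RPKM and *IAA27* (AT4G29080) at 377, 418 and 449 RPKM. *IAA9* was much more even than *BDL*, whose CV was 31.6%, against 2.21% for *IAA9*. In all, 23 of 29 AUX/IAA genes passed 1 RPKM in every library, against 61.6% of all genes.

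ARFs, the transcription factors of the auxin pathway, were lower than these repressors. *ARF2* was the highest at 78.4, 90 and 86.3 RPKM, followed by *ARF4* at 62.4, 65 and 69.2 RPKM. *ARF3* (ETTIN) had 23.8, 24.7 and 24.2 RPKM and *ARF5* (MONOPTEROS) 12.4, 9.43 and 8.54 RPKM, so that *ARF4*, *ARF3* and *ARF5* did not overlap in any library. Of 21 ARF genes 14 (66.7%) passed 1 RPKM in every library, near the 61.6% of all genes, and 5 were at 0 in all. Of the 14 counted ARF genes 0 differed 2-fold between libraries, near the 2.68% of all genes, and *ARF5*, with Mock 1 highest, had the largest ratio of highest to lowest library.

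Variation between the libraries was small for most genes. Over the 16313 genes with an RPKM of at least 1 and at least 50 exon reads in every library, the median CV was 8.2%, and the highest library exceeded the lowest by 1.17 times at the median. A ratio of 2 or more was found in 438 genes (2.68%), one of 4 or more in 43. The common biological coefficient of variation that edgeR estimated from total gene reads was 14.1%. The spread did not follow counting noise at high levels, since genes of 300 to 1000 RPKM had a median CV of 8.25%, against 0.798% from counting alone, while genes of 1 to 3 RPKM had 12.1%, against 8.96%. Mock 1 and Mock 3 were the most different pair, with an SD of log2 ratios of 0.364, against 0.265 for Mock 1 and Mock 2 and 0.255 for Mock 2 and Mock 3. Mock 2 lay between the others in most of the 438 genes, being the highest library in 48 and the lowest in 51. Without Mock 3 the count was 117, without Mock 1 it was 144 and without Mock 2 it was 382.

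Lists differed widely in how much their genes varied. Over the 229 genes counted in the tissue lists, 3 (1.31%) differed 2-fold. Their median CV of 12.1% was nevertheless above the 8.2% of all genes counted. In 8 response lists, grouped after their values were seen (flavonoids, heat shock, cold and dehydration, touch, jasmonate, salicylate, senescence and low oxygen), 49 of 143 genes (34.3%) did, against 15.0% in all pathway lists, 7.59% in the other pathway lists and 2.68% of all genes. The grouping by values makes the share of the response lists high by construction. All lists were chosen with earlier results of these data known, so that the other list shares are not independent of these values either. The medians of the lignin list lay closest together and differed by 0.019 between libraries on the log2 scale, whereas medians differed by at least 0.5 in 4 lists. Without Mock 1 no list and without Mock 3 only 1 list passed that mark, while without Mock 2 there were 5. Over all genes counted, the median log2 deviation from the mean of the libraries was -0.0115 in Mock 1, 0.00388 in Mock 2 and 0.00528 in Mock 3. The share of all genes highest in each library was not counted. Counts of list genes highest in a library, above and below, therefore lack that background.

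**Figure D4:**
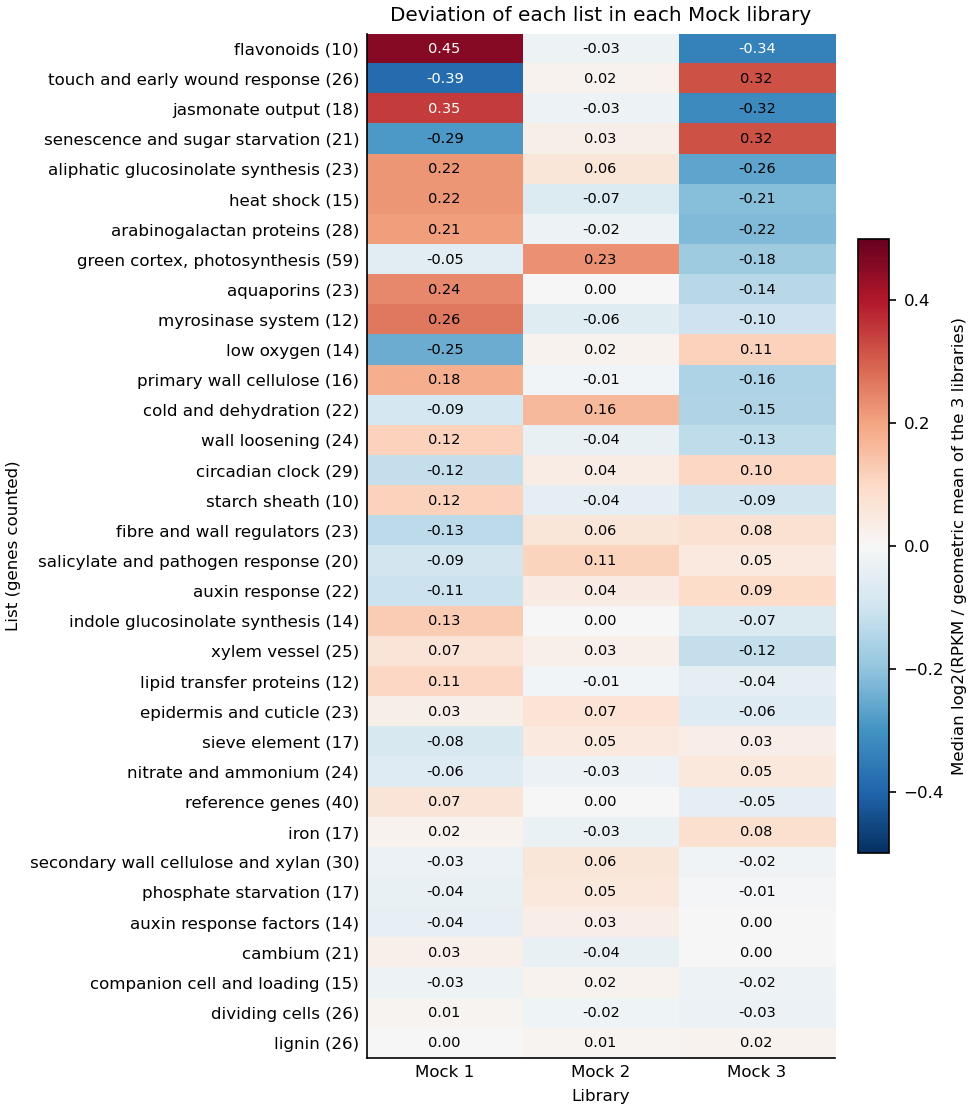
Median over the counted genes of each list of log2(RPKM over the geometric mean of the 3 libraries), for lists with at least 10 counted genes (rows, with the number counted) in each Mock library (columns). Red is above and blue below the mean of the libraries. Flavonoid and jasmonate genes are high in Mock 1, touch and senescence genes high in Mock 3, photosynthesis and cold genes high in Mock 2, and lignin, dividing cell and cambium rows are pale.

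Flavonoids, the ultraviolet-screening pigments of the epidermis, had the widest span. Their median deviation was 0.45 in Mock 1, -0.03 in Mock 2 and -0.34 in Mock 3 on the log2 scale. Of 10 counted genes 4 differed 2-fold, against 2.68% of all genes. *TT4*, the chalcone synthase that begins the pathway, had 11.7, 4.89 and 1.22 RPKM, the largest ratio of any gene (9.6), and *FLS1*, the flavonol synthase, had 7.11, 4.07 and 1.26 RPKM. Both were highest in Mock 1 and lowest in Mock 3. The 250 bases before the annotated start of *TT4* are shown because this gene had the largest ratio between libraries, read 5′ to 3′ from the TAIR10.1 assembly (RefSeq) at chr5:4488226-4488475 on the forward strand, with CACGTG (the G-box core, its own reverse complement) in capitals.

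*TT4*: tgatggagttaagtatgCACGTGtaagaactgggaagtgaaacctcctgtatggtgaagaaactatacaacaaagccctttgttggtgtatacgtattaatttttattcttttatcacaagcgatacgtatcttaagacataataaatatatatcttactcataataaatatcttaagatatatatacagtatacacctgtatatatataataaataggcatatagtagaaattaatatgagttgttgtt

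The letters CACGTG start 233 bases before the *TT4* start and occur in 6.58% of 26704 such windows of protein-coding genes. TATAAA was not found on either strand of the *TT4* window and occurs in 47.7% of the windows.

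Jasmonate genes, which respond to wounding and herbivores, were likewise high in Mock 1, where 15 of 18 counted genes had their highest level. Of these 18 genes 7 differed 2-fold, against 2.68% of all genes. *VSP1*, a vegetative storage protein, had 136, 63.5 and 24.4 RPKM, and the aminotransferase *TAT3* had 83.6, 39 and 26 RPKM. *VSP2*, the most abundant gene of the list, had 492, 379 and 348 RPKM and differed less. Of 15 counted heat shock genes 6 differed 2-fold, against 2.68% of all genes. In the same list 9 were highest in Mock 1, 2 in Mock 2 and 4 in Mock 3. *HSP70* had 92.5, 38.8 and 24.8 RPKM, *HSP90.1* had 106, 58.8 and 40.4 RPKM and the constitutive chaperone *HSC70-1* had 2908, 2074 and 2032 RPKM, all highest in Mock 1. The aquaporin gene *RD28* followed the same order at 240, 102 and 76.8 RPKM.

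Touch and early wound genes ran the other way. Of 26 counted genes 14 (53.8%) differed 2-fold, against 2.68% of all genes, and 16 were highest in Mock 3. The ethylene response factor *ERF104* had 11.6, 22.8 and 81.6 RPKM, and the xyloglucan enzyme gene *TCH4* (*XTH22*), known as touch-induced, had 4.59, 8.27 and 23.57 RPKM. *TCH3*, a calcium sensor and the most abundant gene of the list, had 57.1, 64.9 and 85.9 RPKM. All 3 were highest in Mock 3 and lowest in Mock 1. The 5 jasmonate repressor genes of the same list (*JAZ1*, *JAZ5*, *JAZ7*, *JAZ8* and *JAZ10*, named after their values were seen) were all highest in Mock 1, and *JAZ10* had 21.9, 12.4 and 7.38 RPKM.

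Genes of senescence and sugar starvation, which are induced when sugars run low, shared this direction, with 14 of 21 counted genes highest in Mock 3. Of the 21 genes 7 differed 2-fold, against 2.68% of all genes. *SEN1* (*DIN1*) had 7.24, 24.5 and 36.2 RPKM and *ASN1* (*DIN6*), which stores nitrogen as asparagine, had 14.8, 62.9 and 55 RPKM. In both genes Mock 1 stood far below the other libraries. Low-oxygen genes showed the pattern more weakly (4 of 14 at 2-fold, against 2.68% of all genes). *LBD41* had 23.3, 31.8 and 61.8 RPKM and *ERF73* (*HRE1*) had 6.63, 11.3 and 19 RPKM. The nitrate reductase gene *NIA2*, from the nitrate list, had 9.57, 14.6 and 28.5 RPKM.

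Some salicylate genes set Mock 1 apart (4 of 20 counted genes differed 2-fold, against 2.68% of all genes). *PCC1* had 75.4, 235 and 282 RPKM, *WRKY70* 62.8, 180 and 220 RPKM, and *LURP1*, outside the list, 17.8, 103 and 124 RPKM. Among classical markers of the same pathway, *PR5*, at 230, 224 and 243 RPKM, and *BGL2*, at 109, 99.7 and 110 RPKM, were even. *PR1*, another marker of the list, is not reported here. Only 38.7% of the *PCC1* reads fit 1 place.

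Mock 2 stood out in photosynthesis and cold genes. Of 59 photosynthesis genes 53 were highest in Mock 2. The median deviation of the list was -0.05 in Mock 1, 0.23 in Mock 2 and -0.18 in Mock 3 on the log2 scale. Over all genes counted it was -0.0115, 0.00388 and 0.00528 in the same order. Only *LHB1B1*, at 43.7, 60.9 and 19.2 RPKM, differed 2-fold (1.69% of the list, against 2.68% of all genes). Of 22 cold and dehydration genes 15 were highest in Mock 2. *COR15A* and *COR15B*, neighbouring genes whose products protect chloroplast membranes during freezing, had 15.9, 34.6 and 13.1 RPKM and 25.3, 60.3 and 25.6 RPKM. In both Mock 2 was more than 2-fold above the other libraries, which were close to each other. Windows of 250 bases before their starts are shown because the pair moved together, read 5′ to 3′ on the reverse strand of TAIR10.1 at chr2:17712331-17712580 and chr2:17710434-17710683, with CCGAC (the core of the C-repeat to which cold-induced CBF factors are known to bind, searched on both strands), CACGTG and TATAAA in capitals.

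*COR15A*: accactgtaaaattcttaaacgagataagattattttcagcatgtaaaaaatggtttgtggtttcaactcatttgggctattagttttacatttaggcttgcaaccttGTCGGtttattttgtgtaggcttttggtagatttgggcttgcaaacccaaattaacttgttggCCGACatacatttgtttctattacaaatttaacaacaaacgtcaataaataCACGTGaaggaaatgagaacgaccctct

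*COR15B*: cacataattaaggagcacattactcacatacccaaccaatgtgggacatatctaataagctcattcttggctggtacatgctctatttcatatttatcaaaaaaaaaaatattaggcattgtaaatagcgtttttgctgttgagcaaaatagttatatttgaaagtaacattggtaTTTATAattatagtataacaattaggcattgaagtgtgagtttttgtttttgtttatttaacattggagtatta

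The *COR15A* window holds CCGAC at 79 bases before the start on the same strand and at 142 bases on the opposite strand, and CACGTG at 28 bases. Windows with CCGAC on either strand make 11.9% of the 26704. The *COR15B* window holds neither, and its single match is TATAAA on the opposite strand at 74 bases.

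Outside the lists, the most variable genes were mostly high in Mock 3. *OXS3*, an oxidative stress gene, had 7.29, 13.5 and 65.2 RPKM, *HSPRO2* had 18.9, 28.1 and 145 RPKM, and the kelch gene AT1G80440 had 19.1, 31.4 and 146 RPKM. AT5G21940 was more abundant, at 48.8, 66.2 and 308 RPKM. In all 4 genes Mock 3 stood apart from both other libraries. *PGL5*, a phosphogluconolactonase, ran the other way at 33.1, 12.9 and 6.06 RPKM, and AT5G57887, of unknown product, was low in Mock 2 alone, at 3.32 RPKM against 20.9 RPKM in Mock 1, with Mock 3 close to Mock 1. Only 1.87% of its reads fit 1 place, so that its level is uncertain.

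The 10 genes with the smallest CV were of mixed kinds. *DWA2*, a WD40 protein of ubiquitin ligases, had 9.02, 9.01 and 9.02 RPKM, the proteasome-domain gene AT5G45620 had 29.8 RPKM in every library, and the copper chaperone *ATX1* had 355 to 356 RPKM. *GDI2*, which recycles Rab proteins of membrane traffic, had 122, 123 and 123 RPKM. The others were AT2G46915, AT5G42960, AT1G51980, AT4G03020, AT1G76980 and AT3G09890. All 10 were chosen for the smallest of 16313 CVs.

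**Figure D5:**
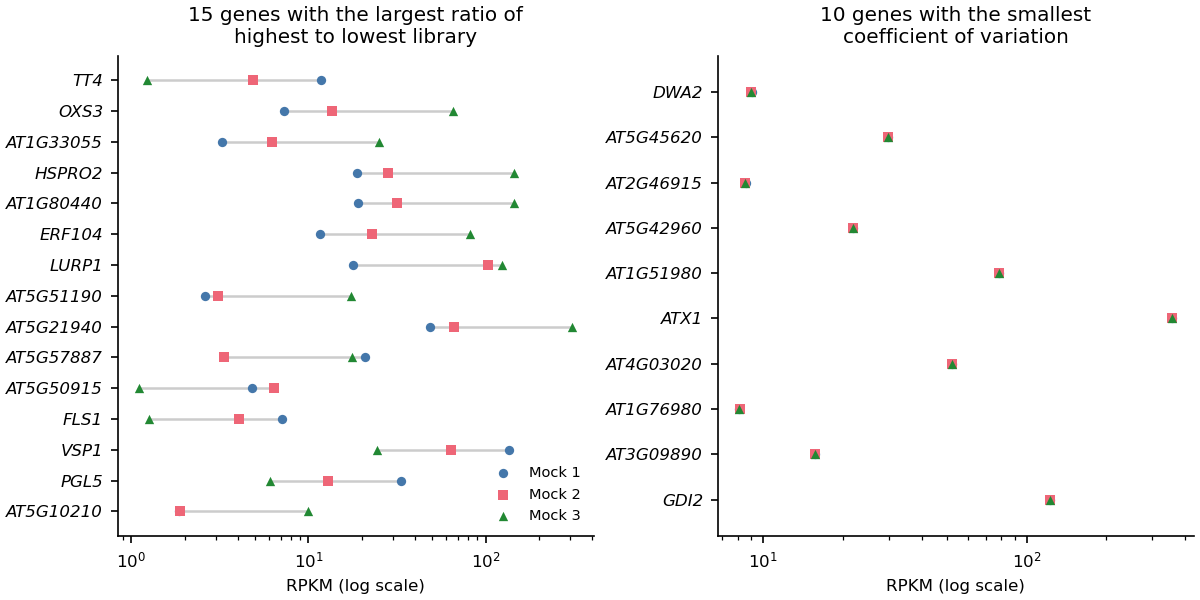
RPKM (x axes, log scale) in the 3 Mock libraries of the 15 genes with the largest ratio of highest to lowest library (left) and of the 10 genes with the smallest CV (right), 1 marker per library. *TT4* spans 1.22 to 11.7 RPKM with Mock 1 highest, *OXS3* spans 7.29 to 65.2 RPKM with Mock 3 highest, and the markers of the genes at the right coincide.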

How the data were processed

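Reads were single-end and, per the study's methods, were aligned to TAIR10 with CLC Genomics Workbench. The library kit marked the strand, but no source says whether reads were counted by strand. For each gene the authors deposited counts of reads (all and unique ones, within exons and within introns) and RPKM values, in which exon counts are divided by exon length and by library size. Values of each library were used as deposited. Of 33323 entries, 5 had no identifier (0.119% to 0.135% of reads) and were left out, and 0 columns of samples were unmapped. Of 33316 genes, 32828 matched TAIR10.1, and 27198 had an exon length and so an RPKM. The 30 identifiers of 15 exchanged-looking pairs entered no list.

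The 41 gene lists (11 tissue, 26 pathway, 4 other organ; 1047 genes) and 30 symbol-based families were chosen with earlier results of these data known. Families seen to mix in other genes under the same symbols were not used. The families used may still hold some, since a match by symbol does not check what a gene encodes. Named genes were the 30 highest, the 4 highest of a list (2 for other organs), the 2 highest of a family, the 15 with the largest ratio between libraries, the 10 with the smallest CV, the 2 most variable of a list, and *BDL*, *ARF3*, *ARF4*, *ARF5*, *WOX4*, *PXY* and the wall cellulose synthases. *PAL1*, *CYP83B1*, *VND7*, *GRP7* and the *JAZ* genes were named after their values were seen. Variation was counted over genes with an RPKM of at least 1 and at least 50 exon reads in every library. No groups were compared and no test was run, so values are descriptions. Code ran in Python 3.11.15 (pandas 2.3.3, numpy 2.4.6, matplotlib 3.10.9) and R 4.3.3 with edgeR 4.0.16 for dispersion, tested on simulated data, and DESeq2 1.42.0 for size factors. Alternatives were unique reads, shares of reads, other scalings, thresholds and pseudocounts, and leaving out each library.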

Additional observations from a re-analysis of the deposited data

Results flagged for a closer look

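Signal was found in entries that entered none of the comparisons. The 5 entries without a gene identifier held up to 0.135% of the reads of a library, and the highest of them, with an exon length of 1759 bases, had 449, 410 and 433 RPKM in Mock 1, Mock 2 and Mock 3. Genes without an exon length, for which no RPKM was given, held up to 1.14% of the reads of a library, the highest share being that of Mock 1.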

How the results depend on the processing

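No paired analysis was possible because the values come from no test and a single group was described. With unique reads, the 100 highest genes held 18.17% of reads, against 18.4% with all reads, and ribosomal RNA 0.0227%. By share of reads in place of RPKM, photosynthesis held 3.42% and secondary wall and lignin 2.77%. With all primary wall members, the ratio of secondary to primary cellulose synthases was 2.02. The count of genes differing 2-fold was 438 with TMM or DESeq2 scaling, 318 with RPKM + 1, 820 with at least 10 exon reads and no RPKM threshold, 2102 with any reads, and 117 to 382 without 1 library. Without 1 library, the median CV was 5.5% to 8.37%, the biological coefficient of variation 11.5% to 17.58%, and 0 to 5 lists had medians 0.5 apart. Of 224 levels of named genes, 19 moved by 1 SD or more with unique exon reads. The count was 0 without 1 library, but leaving out 1 of 3 libraries cannot move a mean by 1 SD. That 0 therefore does not measure how far the levels depend on a library. The causes were not tested. The spread rests on 3 libraries, and low genes were also limited by depth.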

Other observations

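Genes without an exon length were compared by reads. Noncoding RNA genes (170) held 0.2% of reads on average, pseudogenes (3910) held 0.146%, transcribed pseudogenes (922) held 0.121% and long noncoding RNA genes (221) held 0.0933%. *GUT15*, a noncoding RNA gene, had 9322, 12297 and 13556 reads in Mock 1, Mock 2 and Mock 3. An 18S ribosomal RNA gene, AT3G41768, had 170536, 58661 and 111412 reads, of which 6.34% fit 1 place, and was highest in Mock 1 and lowest in Mock 2.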
